A study of Rattus norvegicus with 8 samples.

Results

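Cd68, Lyz2, Mrc1, Clec10a, Clec4a2 and Siglec1 are genes by which tissue macrophages are commonly recognised, and they were followed here in rat dorsal root ganglia, the clusters of sensory neuron cell bodies beside the spinal cord. The genes were taken by symbol from the deposited tables. All 6 were listed among the 4136 genes for IMQ against WT, and 4 of them, Lyz2, Mrc1, Clec10a and Clec4a2, also among the 775 genes for lidocaine against IMQ, out of 4351 genes listed in either. Cd68 and Siglec1 had no lidocaine values in these tables, so their level after lidocaine was not analysed here. In both tables the smallest difference of group means was 1.00 on the log2 scale, so each of these genes had to differ by that much to be listed.

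The study covered 8 libraries of Sprague Dawley rats of 250 g. The lidocaine group (n = 2) had imiquimod on the back skin for 6 days and epidural 1% lidocaine for 4 days, begun on day 3. The IMQ group (n = 3) had the same 6 days of imiquimod, an agonist of Toll-like receptor 7 used to raise a psoriasis-like skin inflammation, with no injection described. The WT group (n = 3) was wild type and had no treatment. Ganglia were collected on day 7. No vehicle on the skin and no epidural injection without lidocaine was described, so cream and drug, and injection and drug, cannot be told apart. Which ganglia were taken, and whether each library came from 1 animal, is not stated in the labels. A p-value here therefore speaks of the spread between libraries, which may be technical.

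Macrophages of the ganglion lie among the neuron cell bodies and their satellite glia, where they take up debris and sense tissue damage. They bind sugars on microbes, dying cells and serum proteins through lectins on the cell surface, carry the cargo inward and break it down in lysosomes. Mrc1 encodes the mannose receptor, a C-type lectin of endocytosis. Clec10a encodes a lectin for galactose and N-acetylgalactosamine that is found on macrophages and dendritic cells. Clec4a2 encodes a lectin of the dendritic cell immunoreceptor family, and Siglec1 encodes sialoadhesin, which binds sialic acid and is known to be induced by interferon in macrophages. Cd68 encodes a glycoprotein of late endosomes and lysosomes related to the LAMP family. Lyz2 encodes lysozyme, which cleaves bacterial cell walls and is made by neutrophils as well as macrophages.

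Values are the authors' normalized read counts, given here either on the linear scale or as log2(normalized count + 1). Relative to the mean of the 8 libraries, the authors' normalization factors put depth at 0.789 and 0.873 in lidocaine libraries. They put it at 0.807 to 0.912 in IMQ libraries and at 1.09 to 1.345 in WT libraries. These factors are not a count of reads. WT1 had the largest factor and 6251729 reads over the genes listed for IMQ against WT, while WT3 had the smallest of the WT factors and 9035486 reads. WT libraries differed more among themselves than IMQ libraries did, with a median chi-square between pairs of 28.5 to 129, against 2.33 to 6.61. These pairs were compared over 2743 to 2913 genes, and counting error alone would give 0.455. Lidocaine libraries stood at 7.99, over 339 genes listed for lidocaine against IMQ, so that value is not directly comparable. The measure also grows with depth, which was greatest in WT libraries. Of 21 markers of ganglion neurons 4 were listed, and their summed normalized counts were 339785 to 351966 in IMQ libraries and 544626 to 1050117 in WT libraries. Gene lengths were not used, so levels are compared between libraries and never between genes.

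All 6 macrophage genes were higher in IMQ ganglia than in WT ganglia, by between 4.05-fold for Mrc1 and 29-fold for Siglec1. In none of them did the groups overlap. Over all listed genes 58.9% were called higher at an adjusted p under 0.05 and 57% were higher with groups that did not overlap, while 37% were called lower, so a listed gene was more likely than not to do the same. The median difference of the 6 genes was 3.74 on the log2 scale, against 1.25 over all listed genes and 1.89 over those that were higher. All tests are limma's moderated test with Benjamini-Hochberg adjustment over the whole table. In bulk tissue, more macrophages and more RNA of these genes per macrophage cannot be told apart.

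**Figure D1:**
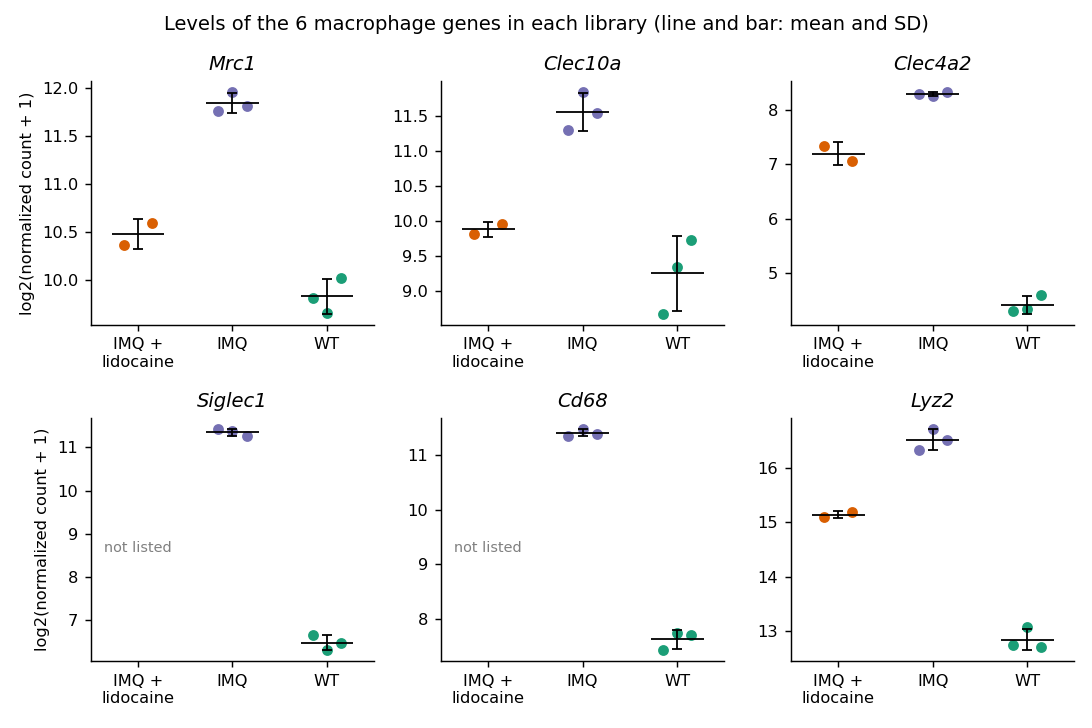
Level of each macrophage gene in every library, as log2(normalized count + 1) on a separate vertical axis per gene, with points for libraries and a line and bar for the mean and SD of lidocaine (n = 2), IMQ (n = 3) and WT (n = 3). IMQ libraries lie above WT libraries in all 6 genes, and in the 4 genes listed for lidocaine both lidocaine libraries lie between them.

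Among the surface lectins, Mrc1 (ENSRNOG00000018251) had normalized counts of 3478, 3970 and 3619 in IMQ ganglia, against 896, 807 and 1034 in WT ganglia. Libraries within a group lay close together. On the log2 scale Mrc1 averaged 11.85 ± 0.10 in IMQ and 9.83 ± 0.18 in WT (SD, n = 3 each), a difference of 2.02 (SE 0.22, limma adjusted p = 0.000456).

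Clec10a (ENSRNOG00000018715) had 2525, 3658 and 2982 normalized counts in IMQ, against 410, 651 and 848 in WT. It was the least even of the 6 in untreated ganglia, where WT3 lay 1.05 above WT1 on the log2 scale, while the other 5 genes differed by -0.20 to 0.29 between those libraries. Means were 11.56 ± 0.27 in IMQ and 9.25 ± 0.53 in WT (SD, n = 3 each), a difference of 2.31 (SE 0.33, limma adjusted p = 0.00134).

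Clec4a2 (ENSRNOG00000030012) stood at 312, 304 and 319 normalized counts in IMQ, against 18.8, 19.2 and 23.2 in WT. This is the gene with the fewest reads behind it, 259 to 299 reads in IMQ libraries and 26 reads in each WT library. An exact Poisson interval puts the WT1 value between 12.3 and 27.6 normalized counts and the IMQ1 value between 275 and 352, counting error only. The difference was 3.87 on the log2 scale (SE 0.30, 14.6-fold, limma adjusted p = 0.000123). Clec4a2 has close paralogs, among them Clec4a, Clec4a1 and Clec4a3, and how the counting divided reads between them is not known, so its level is uncertain to that extent.

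Siglec1 (ENSRNOG00000021243) showed the widest separation. It had 2713, 2639 and 2457 normalized counts in IMQ, against 101, 79.1 and 87.5 in WT. The lowest IMQ library lay 4.60 above the highest WT library on the log2 scale, and the means differed by 4.86 (SE 0.24, 95% interval 4.30 to 5.42, limma adjusted p = 3.26e-05). Of all listed genes, 98.3% had a smaller difference.

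The lysosomal protein gene Cd68 (ENSRNOG00000037563) had 2604, 2854 and 2690 normalized counts in IMQ, against 170, 212 and 207 in WT. Its means were 11.41 ± 0.07 in IMQ and 7.62 ± 0.17 in WT (SD, n = 3 each), 13.8-fold apart. Lyz2 (ENSRNOG00000005825) had 82767, 109068 and 94126 normalized counts in IMQ, against 6828, 8545 and 6663 in WT, a 13-fold difference. Both groups were tight and far apart in both genes. The differences were 3.79 (SE 0.23, limma adjusted p = 6.3e-05) for Cd68 and 3.70 (SE 0.24, adjusted p = 7.41e-05) for Lyz2. A second lysozyme gene close to Lyz2 exists in the rat, so reads may have been divided between the copies.

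RefSeq held a promoter window for 4 of the 6 genes, those of Cd68, Lyz2, Mrc1 and Clec4a2. Each runs from 250 bases before to 50 bases after the start that RefSeq's table uses, and they are shown because these genes rose together. PU.1, encoded by Spi1, is a transcription factor of the myeloid lineage that binds purine-rich sites with a GGAA core. Capitals mark GAGGAA on either strand (TTCCTC when it lies on the other strand), a short form of the PU.1 box.
Cd68 promoter (GRCr8, chr10:54882392-54882691, minus strand): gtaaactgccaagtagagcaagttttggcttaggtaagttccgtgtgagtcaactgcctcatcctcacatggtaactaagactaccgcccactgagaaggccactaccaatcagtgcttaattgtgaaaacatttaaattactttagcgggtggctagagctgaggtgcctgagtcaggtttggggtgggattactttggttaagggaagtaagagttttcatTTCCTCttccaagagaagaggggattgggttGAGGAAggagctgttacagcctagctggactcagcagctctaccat
Lyz2 promoter (GRCr8, chr7:54797962-54798261, minus strand): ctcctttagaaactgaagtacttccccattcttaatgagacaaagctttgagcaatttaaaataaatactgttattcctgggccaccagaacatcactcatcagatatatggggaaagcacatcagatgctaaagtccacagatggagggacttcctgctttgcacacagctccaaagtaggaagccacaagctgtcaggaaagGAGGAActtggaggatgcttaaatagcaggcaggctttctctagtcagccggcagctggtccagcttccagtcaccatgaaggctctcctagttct
Mrc1 promoter (GRCr8, chr17:82157475-82157774, plus strand): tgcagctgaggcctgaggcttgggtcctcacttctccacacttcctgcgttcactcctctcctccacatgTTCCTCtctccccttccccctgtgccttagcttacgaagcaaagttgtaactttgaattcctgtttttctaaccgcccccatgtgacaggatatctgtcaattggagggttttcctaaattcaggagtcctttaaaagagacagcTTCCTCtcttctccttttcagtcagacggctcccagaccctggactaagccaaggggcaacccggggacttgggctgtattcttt
Clec4a2 promoter (GRCr8, chr4:157934346-157934645, plus strand): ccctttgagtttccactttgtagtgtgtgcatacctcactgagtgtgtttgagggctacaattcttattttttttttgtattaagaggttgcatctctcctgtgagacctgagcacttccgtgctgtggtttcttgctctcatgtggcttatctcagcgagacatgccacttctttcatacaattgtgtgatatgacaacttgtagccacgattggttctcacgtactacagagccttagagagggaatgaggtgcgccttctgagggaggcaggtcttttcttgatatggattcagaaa
GAGGAA stood at bases 224 to 229 and 255 to 260 of the Cd68 window, counted from its 5′ end, at bases 205 to 210 of Lyz2 and at bases 71 to 76 and 216 to 221 of Mrc1. It did not occur in the Clec4a2 window. Of 33469 rat promoter windows of the same length, 27.6% held these letters. The AP-1 site TGANTCA occurred at bases 46 to 52 and 171 to 177 of Cd68 and in none of the other windows printed, against 7.33% of all windows. The core of the interferon-stimulated response element, searched as 2 copies of GAAA with any 2 bases between them, was in none of the 4, against 3.92% of all windows. TATAAA was in none of the 4 either, against 14.2% of all windows, and CCAAT was in the windows of Cd68, Mrc1 and Clec4a2, against 37.5%. Both strands were searched for every motif. No match of GAGGAA overlapped one of TGANTCA. These are matches of letters and not bound sites. Spi1 itself, named after its values were seen, was higher in IMQ than in WT by 2.02 on the log2 scale (limma adjusted p = 0.000632). Of all listed genes 58.9% were called higher, and the median over those that were higher was 1.89. A part of PU.1 in the rise of the 6 genes was not tested.

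The 6 genes did not rise by the same amount. Within each library the log2 difference between a gene and Cd68 was taken, which removes whatever changes all of them alike. Its size depends on gene length and has no meaning alone. Mrc1 relative to Cd68 was at 0.42, 0.48 and 0.43 in IMQ, against 2.39, 1.92 and 2.32 in WT. Clec10a relative to Cd68 was at -0.04, 0.36 and 0.15 in IMQ, against 1.27, 1.61 and 2.03 in WT. Both lectins thus rose less than Cd68 in every pairing of libraries. Siglec1 relative to Cd68 went the other way, at 0.06, -0.11 and -0.13 in IMQ, against -0.75, -1.41 and -1.23 in WT. Lyz2 relative to Cd68 averaged 5.13 ± 0.14 in IMQ and 5.22 ± 0.19 in WT (SD, n = 3 each), and Clec4a2 relative to Cd68 was at -3.23 to -3.06 in IMQ, against -3.40 to -3.10 in WT. For these last genes the groups overlapped. These within-library differences are a description and were not tested.

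**Figure D2:**
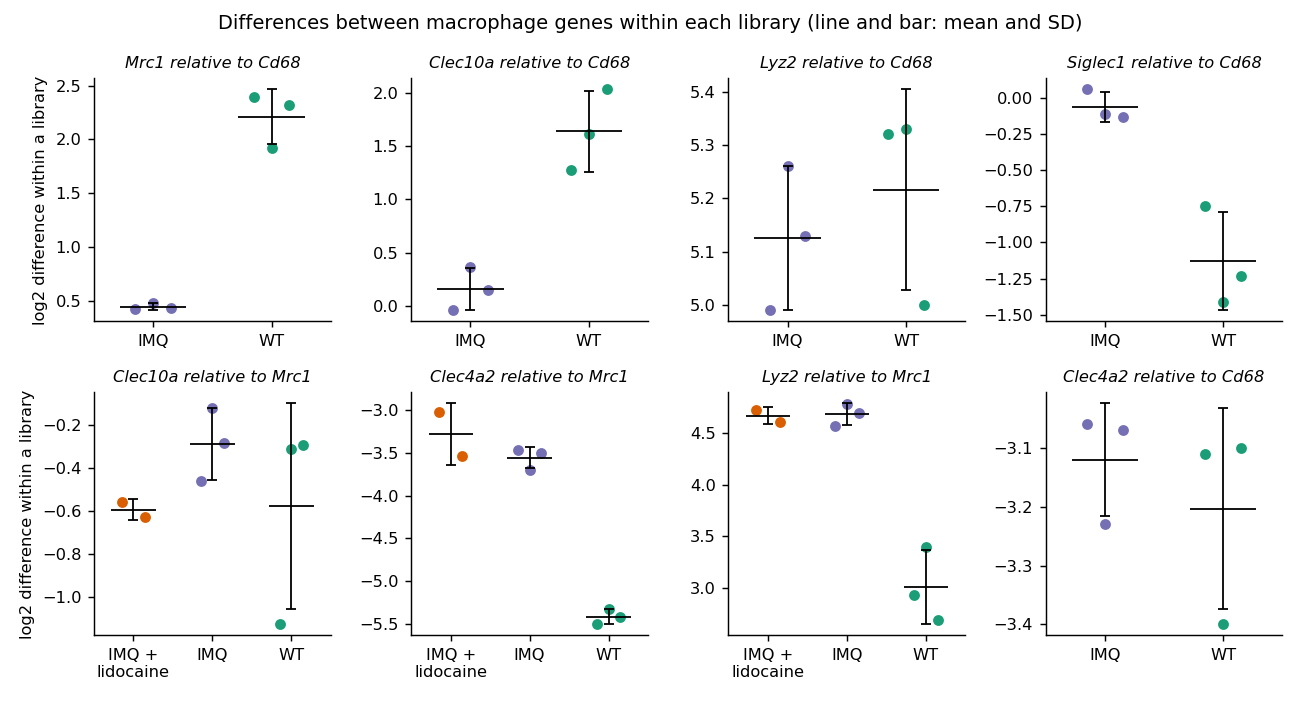
Log2 difference between a macrophage gene and Cd68 (upper row and last panel of the lower row) or Mrc1 (the other panels) within each library, with a line and bar for the mean and SD and a separate vertical axis per panel. Mrc1 and Clec10a relative to Cd68 are lower in IMQ than in WT, Siglec1 is higher, and Lyz2 relative to Mrc1 is at 4.61 to 4.73 in lidocaine, 4.57 to 4.78 in IMQ and 2.69 to 3.40 in WT.

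With epidural lidocaine added to imiquimod, the 4 macrophage genes with values were all lower than with imiquimod alone, by between 2.13-fold for Clec4a2 and 3.19-fold for Clec10a. In each of them the groups did not overlap. This was also the rule in that table, where 87.1% of genes were called lower, 7.48% were called higher and 89.2% were lower without overlap. The 4 genes had a median difference of -1.38, against -1.44 over all genes of the table, so the share and the size were both near the background.

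Clec10a fell to 899 and 995 normalized counts in lidocaine ganglia, against 2525, 3658 and 2982 in IMQ ganglia. The means were 9.89 ± 0.10 in lidocaine and 11.56 ± 0.27 in IMQ (SD, n = 2 and 3), a difference of -1.67 (SE 0.25, 95% interval -2.27 to -1.08, limma adjusted p = 0.00391). Mrc1 fell to 1323 and 1537 in lidocaine, against 3478, 3970 and 3619 in IMQ, a difference of -1.37 (SE 0.23, limma adjusted p = 0.00453). Both lectins thus lay well below the lowest IMQ library. Clec4a2 fell to 161 and 132 normalized counts in lidocaine, from 131 and 118 reads, against 312, 304 and 319 in IMQ, a difference of -1.09 (SE 0.23, limma adjusted p = 0.0068).

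Lyz2 had 35122 and 37469 normalized counts in lidocaine, against 82767, 109068 and 94126 in IMQ. The libraries of a group lay as close together as for the lectins, and the difference of -1.38 was about that of Mrc1. Its error was larger (SE 0.49, 95% interval -2.56 to -0.21, limma adjusted p = 0.0313), because limma's moderated SD for this very abundant gene was 0.54 while the SD between its own libraries was 0.17. The call was lost without IMQ replicate 2 (adjusted p = 0.0574), without IMQ replicate 3 (0.128), without lidocaine replicate 1 (0.145) and without lidocaine replicate 2 (0.129), with differences of -1.43 to -1.28. The calls of the 3 lectins held in each of these fits. The replicate number as a block also ended the Lyz2 call (adjusted p = 0.409).

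**Figure D3:**
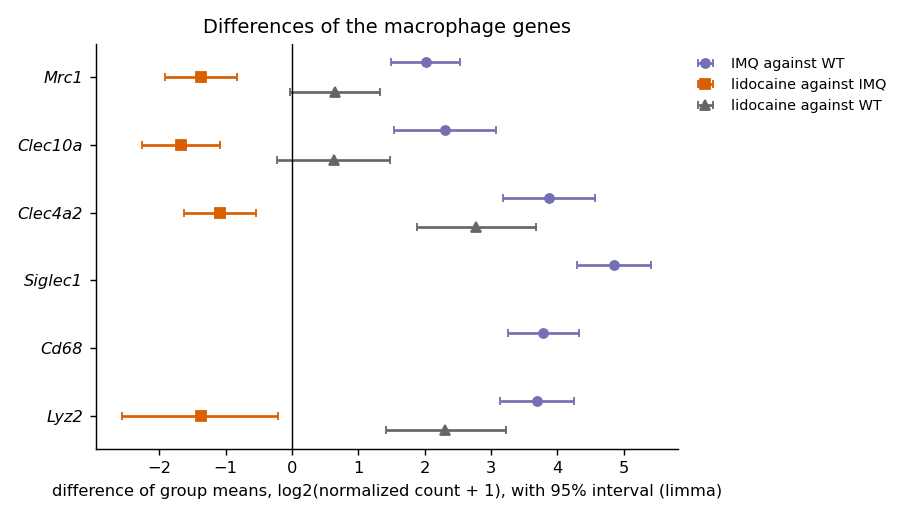
Difference of group means for each macrophage gene on the log2(normalized count + 1) scale with limma's 95% interval, for IMQ against WT, lidocaine against IMQ and lidocaine against WT. Siglec1 and Cd68 have a value for IMQ against WT only, and for Mrc1 and Clec10a the intervals of lidocaine against WT include 0.

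Set against untreated ganglia, the 4 genes fell into pairs. This comparison was made on the genes that stand in both tables and pass the filter on low values, 533 of them, of which 32.8% were called higher, 4.5% were called lower and 55.3% were higher without overlap. Lyz2 stayed at 15.15 ± 0.07 in lidocaine, against 12.83 ± 0.20 in WT (SD, n = 2 and 3). The difference was 4.97-fold, or 2.31 on the log2 scale with an SE of 0.39 (limma adjusted p = 0.00282). Clec4a2 stayed at 7.20 ± 0.21 in lidocaine, against 4.41 ± 0.16 in WT, 6.88-fold apart, or 2.78 on the log2 scale with an SE of 0.39 (limma adjusted p = 0.00132). The Lyz2 call was lost without lidocaine replicate 1 (adjusted p = 0.0518) and without lidocaine replicate 2 (0.0592).

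The other pair did not pass. Mrc1 was at 10.48 ± 0.15 in lidocaine and 9.83 ± 0.18 in WT, a difference of 0.65 (95% interval -0.03 to 1.33, limma adjusted p = 0.123). Clec10a was at 9.89 ± 0.10 in lidocaine and 9.25 ± 0.53 in WT, a difference of 0.63 (95% interval -0.22 to 1.48, limma adjusted p = 0.213). Both lidocaine libraries lay above all 3 WT libraries in both genes, for Clec10a by a gap of 0.09. The intervals leave room for no difference and for one of over 2-fold, so they do not show a return to the untreated level. The comparisons share libraries, and their values are given side by side only.

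Within a library, Lyz2 and Clec4a2 stood in much the same relation to Mrc1 in lidocaine and IMQ ganglia and in another one in WT ganglia. Lyz2 relative to Mrc1 was at 4.73 and 4.61 in lidocaine, at 4.57, 4.78 and 4.70 in IMQ, and at 2.93, 3.40 and 2.69 in WT. Clec4a2 relative to Mrc1 was at -3.03 and -3.54 in lidocaine, at -3.47, -3.70 and -3.50 in IMQ, and at -5.50, -5.32 and -5.42 in WT. In both the lidocaine and IMQ libraries overlapped and the WT libraries stood apart. Clec10a relative to Mrc1 was at -0.56 and -0.63 in lidocaine, at -0.46 to -0.12 in IMQ and at -1.13 to -0.29 in WT, with WT overlapping both other groups. Most genes listed for lidocaine against IMQ fell (87.1% called lower, median -1.44), and other pairs of listed genes were not compared in this way. These differences were not tested.

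**Figure D4:**
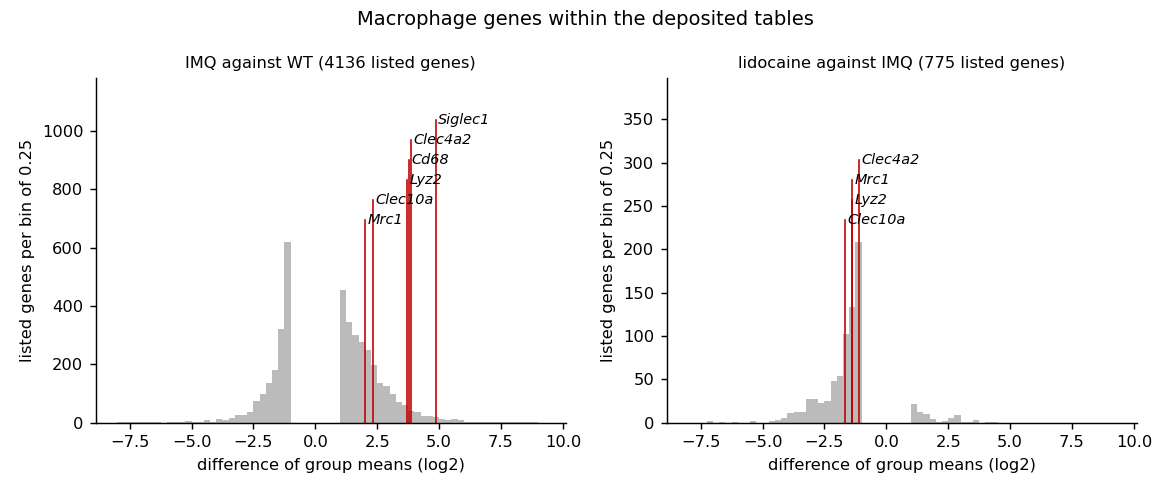
Number of listed genes by difference of group means (bins of 0.25 on the log2 scale) in each deposited table, with the macrophage genes marked by red lines. In IMQ against WT the 6 genes lie between 2.02 and 4.86, above the median of 1.25, and in lidocaine against IMQ the 4 genes lie between -1.67 and -1.09, around the median of -1.44; no gene lies within 1.00 of 0 because the authors listed none there.

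Genes on a list for macrophage and monocyte identity moved the same way for IMQ against WT and for lidocaine against IMQ. Markers of other leukocytes moved too (given below), and which cells the RNA of these genes came from was not tested. Of 40 symbols for macrophage and monocyte identity (none of them among the 6 genes), 33 were listed for IMQ against WT. Of all genes listed there, 58.9% were called higher, and the median difference was 1.25. All 33 were higher and passed, with a median difference of 2.78. The largest were Csf2rb, a receptor subunit shared by several growth factors of myeloid cells, at 5.46 (SE 0.27), and the Fc receptors Fcgr2b at 4.81 (SE 0.24) and Fcgr3a at 4.78 (SE 0.38). For lidocaine against IMQ 15 were listed and all 15 were lower and passed, with a median of -1.18. Over all genes listed for that comparison 87.1% were called lower and the median was -1.44, so this count was near the background and the list's median was the smaller one in size. The activating receptor Trem1 was at -2.37 (SE 0.56), and it did not pass without lidocaine replicate 1 (-1.60, adjusted p = 0.088). For lidocaine against WT 32.8% of all genes tested were called higher. Of the 15 here 11 were higher and passed, and C1qa, C1qb, Lst1 and Ms4a4a did not. That count was 6 without lidocaine replicate 1 and 4 without lidocaine replicate 2. The limma adjusted p of the named genes that passed was at most 0.00961.

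C-type lectins other than the 3 described were also higher in IMQ ganglia. Of 31 symbols 14 were listed and all 14 rose (median 2.57), where 58.9% of all listed genes were called higher (median 1.25). Clec4e, known as Mincle, is a receptor for glycolipids of mycobacteria and for products of dead cells. It was at 8.66 ± 0.42 in IMQ and 1.98 ± 0.69 in WT (SD, n = 3 each, limma adjusted p = 9.1e-05). Its WT libraries held only 1.78 to 5.79 normalized counts, so the size depends on the pseudocount. Over the alternatives that kept all libraries the Clec4e difference ran between 4.97 and 7.09. The related receptor Clec4d rose by 4.54 (SE 0.32) and Clec7a, the beta-glucan receptor dectin-1, by 4.04 (SE 0.24). The paralogs of Clec4a2 rose less, Clec4a1 by 2.77, Clec4a3 by 2.70 and Clec4a by 1.56, values looked up because the counting could have divided reads among them. Under lidocaine all 9 listed C-type lectins fell relative to IMQ (median -1.59), where 87.1% of all genes were called lower (median -1.44). This count was thus near the background. Clec4e was at -2.11 (SE 0.30), Clec9a, a dendritic cell receptor for exposed actin, at -1.59 (SE 0.25) and Clec4d at -1.52 (SE 0.25). Against WT 5 of 9 were still higher in lidocaine and passed, beside 32.8% of all genes tested. Among the 5 were Clec4d (3.02, SE 0.39), Clec7a (2.67, SE 0.31) and Clec12a (1.37, SE 0.35). The limma adjusted p of these was at most 0.0161. The count against WT was 3 without WT replicate 2 and 3 without lidocaine replicate 2, and Clec12a did not pass without either of these (adjusted p = 0.0729 and 0.124) or without lidocaine replicate 1 (0.103).

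Sialic acid and galactose binders were mixed. Of 15 Siglec and galectin symbols other than Siglec1, 9 were listed for IMQ against WT. In this list 7 rose, where 58.9% of all listed genes were called higher. Siglec8 was at 3.74 (SE 0.34), Cd33 at 3.11 (SE 0.31) and the B cell receptor partner Cd22 at 3.03 (SE 0.45). Lgals1, a galectin of many tissues, was at 14.16 ± 0.11 in IMQ and 15.79 ± 0.71 in WT and fell by 1.64 (SE 0.37), and Lgals5, at -1.06, did not pass. Under lidocaine 4 were listed and all fell relative to IMQ, where 87.1% of all genes were called lower, so this count was near the background. Lgals5 fell by 2.22 (SE 0.57), Siglec10 by 1.25 (SE 0.41), Cd22 by 1.17 (SE 0.26) and Siglec8 by 1.02. The count of 4 was 2 without IMQ replicate 1, 2 without IMQ replicate 3 and 1 without lidocaine replicate 1. Siglec10 did not pass without any 1 of 4 of the 5 libraries (adjusted p of 0.0671 to 0.157) or with the replicate block (0.0517), and Lgals5 did not without lidocaine replicate 1 (-1.53, adjusted p = 0.125). Against WT, 32.8% of all genes tested were called higher in lidocaine and 4.5% lower. Of this list, lidocaine ganglia were higher in Siglec8 (2.71, SE 0.39) and Cd22 (1.85, SE 0.52) and lower in Lgals5 (-3.29, SE 0.50), and Siglec10 did not pass. The limma adjusted p of those that passed was at most 0.0256. Of the 2 higher against WT, 1 passed without lidocaine replicate 1 and 0 without lidocaine replicate 2. Cd22 did not pass without lidocaine replicate 1 or 2 (adjusted p = 0.185 and 0.207), Siglec8 did not without lidocaine replicate 2 (0.0562), and Lgals5 did not without lidocaine replicate 1 (0.0667).

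Scavenger and clearance receptors rose in 15 of 15 listed for IMQ against WT, out of 27 symbols (median 2.18). Over all listed genes 58.9% were called higher (median 1.25). Vsig4, a complement receptor of resident macrophages, rose by 4.73 (SE 0.83), a size that depends on the pseudocount (2.98 to 5.95) because a WT library was at 0. The oxidised lipoprotein receptor Olr1 rose by 4.30 (SE 0.62) and the scavenger receptor Msr1 by 3.79 (SE 0.48). Under lidocaine 5 were listed and all 5 fell relative to IMQ (median -2.43), where 87.1% of all genes were called lower (median -1.44). This count was thus near the background. The median is that of Cd163l1, whose normalized counts averaged only 36.5. With a minimum of 50, 3 were tested and all 3 fell. They were Vsig4 at -2.97 (SE 0.37), the haemoglobin scavenger receptor Cd163 at -2.02 (SE 0.35) and Msr1 at -1.14 (SE 0.21). Against WT, Msr1 (2.65, SE 0.54) and Cd163 (1.64, SE 0.32) were higher in lidocaine and passed, 2 of the 4 tested, beside 32.8% of all genes tested. The limma adjusted p of these receptors was at most 0.00639. Against WT, 1 of the 2 passed without lidocaine replicate 1 and 0 without lidocaine replicate 2. Msr1 had an adjusted p of 0.121 and 0.141 in those fits, and Cd163 one of 0.0824 without lidocaine replicate 2.

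Lysosomal genes were seldom listed. Of 54 symbols 9 met the authors' selection for IMQ against WT, where 58.9% of all listed genes were called higher (median 1.25). All 9 rose (median 2.43). They were led by the transcription factor Tfec (4.40, SE 0.51), the metal transporter of phagosomes Slc11a1 (4.01, SE 0.28) and the glycoprotein Gpnmb (3.90, SE 0.22). Under lidocaine 5 were listed and fell relative to IMQ (median -1.19), where 87.1% of all genes were called lower (median -1.44). This count was thus near the background. Among the 5 were Slc11a1 (-1.34, SE 0.26), the protease cathepsin S, Ctss (-1.19, SE 0.24), and Tfec (-1.18, SE 0.29). Against WT 3 of 5 were higher in lidocaine and passed, beside 32.8% of all genes tested. Slc11a1 was at 2.67 (SE 0.35) and Ctss at 1.51 (SE 0.31). The limma adjusted p of the lysosomal genes named was at most 0.0115. The 5 that fell relative to IMQ were 2 without lidocaine replicate 1 and 3 with the replicate block. Tfec did not pass without lidocaine replicate 1 or 2 (adjusted p = 0.0632 and 0.0514) or in the fit over 3 groups (0.0576), and Ctss did not with the block (0.0526). The 3 higher against WT were 1 without either lidocaine library, and Ctss did not pass there (0.0667 and 0.0885).

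**Figure D5:**
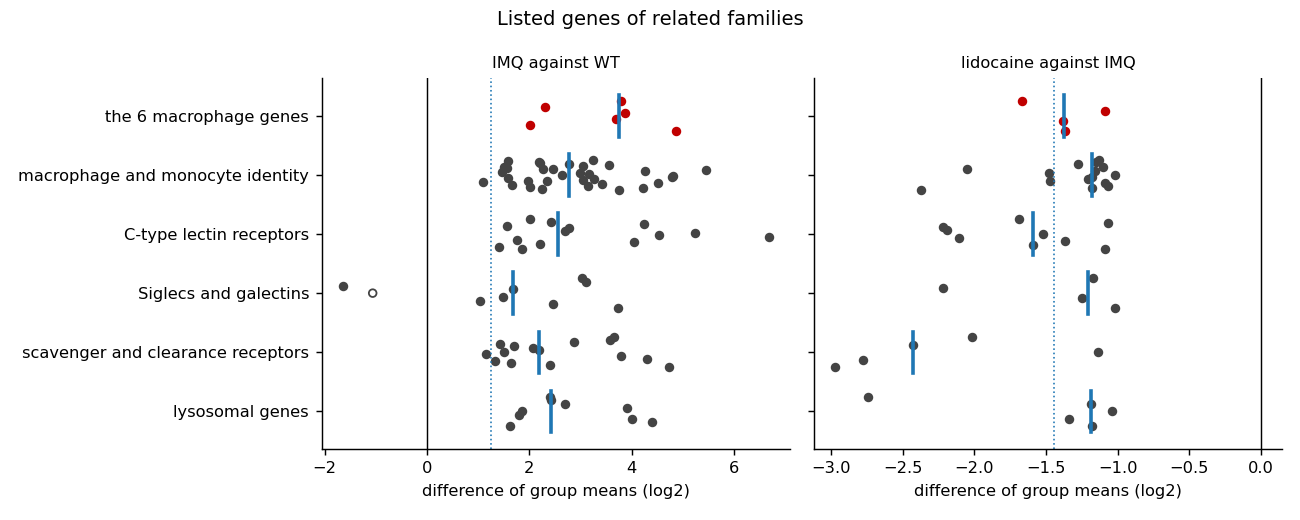
Difference of group means (log2) of each listed gene, for the macrophage genes (red) and 5 lists of related genes (grey), in IMQ against WT and in lidocaine against IMQ; filled points passed limma at an adjusted p under 0.05, the open point did not, blue bars are list medians and the dotted line is the median of all listed genes. Every list median lies above 1.25 in IMQ against WT, while in lidocaine against IMQ only the C-type lectins (-1.59) and scavenger receptors (-2.43) lie below -1.44.

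The genes whose pattern over the libraries came closest to each macrophage gene were found by the root-mean-square difference of centred log2 values, among 2653 symbols whose normalized counts averaged 50 or more over the 6 libraries of IMQ and WT. Cd68 was closest to Clec4a2 (0.119), Slc11a1 (0.138) and Lyz2 (0.139), and Lyz2 to Cd68 (0.139), the glial filament gene Gfap (0.140) and Tnfrsf14 (0.165). Clec4a2 was closest to Gpnmb (0.0825), Cd68 (0.119) and the complement gene C2 (0.145). The other lectins had other neighbours. Mrc1 was closest to Btk (0.0545), Ms4a6e (0.0739) and Irf5 (0.0981), Clec10a to Il18bp (0.105), Cd37 (0.113) and RT1-A2 (0.121), and Siglec1 to C4a (0.145), Fcgr2b (0.171) and Reg3a (0.175).

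Over the 5 libraries of lidocaine and IMQ, among 427 genes, Mrc1 was closest to Slpi (0.0422), Il21r (0.0684) and Ms4a4a (0.0769), and Clec10a to Tnfrsf14 (0.0801), Il2rb (0.0848) and Clec9a (0.0905). Clec4a2 was closest to Fgr (0.0430), Phyhd1 (0.0659) and Cytip (0.0867), and Lyz2 to RT1-DMb (0.0490, and 0.0782 for its second listed copy) and Mrc1 (0.0771). Over all 8 libraries, among 328 genes, the closest was Dapp1 for Mrc1 (0.124), Itgb7 for Clec10a (0.193), Clec7a for Clec4a2 (0.178) and Tnfrsf14 for Lyz2 (0.180). With 2 or 3 libraries a group such likeness is mostly likeness in the group difference.

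Markers of other cells that carry some of these genes moved in the same libraries. Of 16 neutrophil markers, cells that also make lysozyme, 10 were listed for IMQ against WT. All 10 rose, where 58.9% of all listed genes were called higher. The summed normalized counts of the 10 were 9890 to 14652 in IMQ, against 1193 to 3123 in WT. The largest difference was Cxcr2 (5.44, SE 0.37). The median of the 10 was 1.97, against 1.25 over all listed genes. S100a9 (1.20) and Prtn3 (1.36, with groups that overlapped) rose least. For lidocaine against IMQ 10 were listed and 9 fell, where 87.1% of all genes were called lower, so this count was near the background. The 10 summed to 1969 to 2111 in lidocaine and 4523 to 9393 in IMQ. Cd177 was at -4.73 (SE 0.95), a size that depends on a lidocaine library at 0. It ran between -6.44 and -2.76 over the pseudocounts and was -3.07 without lidocaine replicate 1. For lidocaine against WT 7 could be tested, of which 1 was higher, 1 was lower and 5 did not pass. Over all genes tested there, 32.8% were called higher and 4.5% lower. None of the listed neutrophil markers was at 0 in all libraries of a group. Their part in the Lyz2 result was not tested.

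Dendritic cells, which can express Clec10a and lectins of the Clec4a family, had 5 of 12 markers listed in each table. For IMQ against WT 4 rose and 1 fell, where 58.9% of all listed genes were called higher and 37% lower. The sums of the 5 overlapped, at 618 to 886 in IMQ and 649 to 1231 in WT. Most of the WT sums was Cd83, which fell, at 322 to 414 in IMQ and 587 to 1128 in WT. The 4 that rose did not overlap, with Xcr1 at 71.1 to 138 in IMQ and 0 to 7.95 in WT, Cd80 at 83.1 to 103 in IMQ and 6.65 to 15.9 in WT, Cd86 at 120 to 206 in IMQ and 37 to 91.9 in WT, and Siglech at 21.7 to 36.2 in IMQ and 0 in all 3 WT libraries. The difference of Xcr1 was 4.81 (SE 0.79), between 2.98 and 6.06 by pseudocount. All 5 listed for lidocaine against IMQ, with Ccr7 in place of Cd83, fell, where 87.1% of all genes were called lower. The sums of these dendritic cell markers were 121 to 163 in lidocaine, against 335 to 504 in IMQ, and Xcr1 was at -2.27 (SE 0.40). Their part in the lectin results was not tested.

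Over all listed genes 58.9% were called higher and 37% lower for IMQ against WT, and 87.1% lower for lidocaine against IMQ. For lidocaine against WT 32.8% of the genes tested were called higher and 4.5% lower. T and NK cell markers rose in 13 of 13 listed of 15 (Cd8a by 5.58), with sums of 3647 to 3831 in IMQ and 331 to 635 in WT. They fell in 10 of 10 under lidocaine (Nkg7 by 1.65), with sums of 444 to 505 in lidocaine and 1206 to 1354 in IMQ. B and plasma cell markers rose in 4 of 5 listed of 13 and 1, Cd79a, fell, with sums of 5540 to 8656 in IMQ and 221 to 410 in WT. Under lidocaine they fell in 9 of 9, with sums of 164 to 228 in lidocaine and 5825 to 8900 in IMQ, led by the immunoglobulin M heavy chain Igh-6 at -7.22. Set against WT, lidocaine ganglia were higher in 4 of 10 T and NK markers (median 1.47), and of 5 B and plasma cell markers 1 was higher and 2 were lower (median -1.77). Mast cell markers fell in 3 of 4 listed of 10 for IMQ against WT, with Mcpt1l1 at -2.22 (SE 0.35), and in 1 of 1 under lidocaine.

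Tissue markers were less uniform, beside 58.9% of all listed genes called higher and 37% lower for IMQ against WT. Satellite glia and Schwann cell markers rose in 5 of 5 listed of 14, with Gfap at 3.65 (SE 0.27), endothelial markers in 5 of 5 listed of 11, with Eng at 1.73 (SE 0.23), and fibroblast markers in 4 of 6 listed of 11, with Thbs2 at 3.00 (SE 0.33), while 2 fell. All 4 listed neuron markers fell, with Sncg at -1.46 (SE 0.37), as did all 7 listed erythroid entries, with Hbb at -3.12, and 7 of 8 listed skeletal muscle genes, with Tnnc2 at -4.64 (-3.07 with a pseudocount of 10). Under lidocaine no neuron or endothelial marker was listed, so their levels there were not analysed here. Of all genes listed for lidocaine against IMQ, 87.1% were called lower and 7.48% higher. All 8 listed erythroid entries fell relative to IMQ (Slc4a1 by 3.03, which did not pass without lidocaine replicate 1, adjusted p = 0.0519), as did the 1 listed muscle gene and, of 2 glial genes, Gfap by 1.27 (adjusted p = 0.0613 without lidocaine replicate 2 and 0.0627 with the block). Of 3 fibroblast genes 1 rose, 1 fell (Pi16 by 1.69) and 1 did not pass. The part of these tissues in the macrophage gene results was not tested.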

How the data were processed

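RNA of rat dorsal root ganglia was sequenced in 8 libraries (lidocaine 2, IMQ 3, WT 3), grouped by sample title. Per the submitters' processing notes, bcl2fastq, STAR 2.5.3a and DESeq2 were used, with no role stated. Genome build, annotation, counter and strandedness were not stated, and reads of overlapping or antisense genes may be mixed. The authors deposited log2 values per library, which were read as log2(normalized count + 1) because, raised to the linear scale less 1, 100% of the values tested (up to 2000 reads) came out whole in reads when divided by the library's own step (tolerance 0.02 reads). That step gives the reads behind each value. The 560 genes found in both tables had the same IMQ values to within 4.98e-09. Selection of genes was the authors'.

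Each comparison was fitted by limma 3.58.1 (R 4.3.3, variance trend on mean level) on all genes of its table (both tables' shared genes for lidocaine against WT) with a mean normalized count of at least 1, without replicate numbers, with Benjamini-Hochberg adjustment and a threshold of 0.05. The fit was tested on simulated data. Because the authors had already selected the genes, p-values say how even a difference was. Levels are mean ± SD, and differences understate changes of low genes. Poisson intervals are at 95% and cover counting error only.

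The 6 genes and 16 gene lists were chosen with earlier results of these data known, and promoter motifs after the sequences were seen. Named beside the 6 are, per comparison, the 3 most similar genes of each, the 3 largest differences of each direction per related list and the largest per marker list, all with a mean of at least 50. Alternatives were pseudocounts of 0.1 and 10, no filter, a minimum of 50, a threshold of 0.01, a replicate block, each library left out, limma-voom on recovered reads, 1 fit over 3 groups and, added after seeing the data, no mean-variance trend. Promoters are from RefSeq on GRCr8, matched by symbol for 4 of the 6 genes.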

Additional observations from a re-analysis of the deposited data

How the results depend on the processing

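All 14 differences of the macrophage genes kept their direction in the 200 values from the alternatives, and 192 kept their side of the threshold. The other 8 were Lyz2. For lidocaine against IMQ its call was lost with the replicate block (-1.39, adjusted p = 0.409), at a threshold of 0.01 (-1.38) and without 4 of 5 libraries (range over libraries left out -1.48 to -1.28); over all its alternatives the adjusted p ran between 0.00861 and 0.409. For lidocaine against WT it was lost without either lidocaine library (range 2.25 to 2.43). Both Lyz2 calls held in the fit without the mean-variance trend. The cause of the losses was not tested, though leaving out 1 of 2 lidocaine libraries leaves 1, assumed to vary like the others.

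The replicate numbers did not pair the samples (same-numbered IMQ and WT libraries correlated at -0.159, -0.058 and -0.118, lidocaine and IMQ libraries at 0.016 and 0.044, lidocaine and WT libraries at -0.036 and 0.043). The replicate block gave 37 genes higher in lidocaine against IMQ in place of 58.

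Counts over whole tables moved by more than 1.5 times as follows. For IMQ against WT, 2435 higher and 1530 lower became 509 and 39 in the fit over 3 groups, by fewer genes tested, and 1276 and 619 at a threshold of 0.01, with ranges of 1563 to 2397 and 869 to 1552 over libraries left out. These counts were 1563 and 892 without IMQ replicate 3 and 1608 and 869 without WT replicate 2. For lidocaine against IMQ, 58 higher and 675 lower became 12 and 441 with a minimum of 50, 18 higher in the fit over 3 groups, and 18 and 336 at 0.01, with ranges of 23 to 50 and 364 to 644 over libraries left out (23 and 364 without lidocaine replicate 1, 27 higher without lidocaine replicate 2, 30 higher without IMQ replicate 3). For lidocaine against WT, 175 higher became 91 at 0.01, with ranges of 36 to 187 higher and 6 to 31 lower (24 in the reported fit), which were 54 and 6 without lidocaine replicate 1 and 36 and 13 without lidocaine replicate 2. The counts of related lists given for IMQ against WT were lower in the fit over 3 groups, which holds fewer of their genes. For lidocaine against IMQ, 462 genes were tested with the minimum of 50 and 560 in the fit over 3 groups. The reported fit tested 775, so those counts are not over the same genes. Among 101 results of the other named genes, 1428 of 1488 values kept their call, 60 lost it and 0 changed direction. Clec4a2 in WT rests on 26 reads per library.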
